A study of Caenorhabditis elegans with 31 samples.

Results

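Intestine nuclei of adult Caenorhabditis elegans were picked out of single-nucleus RNA libraries by what they contained. In every library, nuclei with 800 to 20000 UMIs (unique molecular identifiers, each standing for 1 captured RNA molecule) were kept. A score was then formed as the summed UMIs of 9 intestinal genes (ges-1, ifb-2, pept-1, act-5, asp-1, cpr-1, elt-7, lys-7 and spp-2) over all UMIs of the nucleus. Intestine nuclei were thus chosen by measured levels of these genes: a nucleus was taken if its score lay in the top 4% of its library and at least 3 of the 9 genes were detected. This gave 2269 intestine nuclei among 57155 kept nuclei and 85180 deposited nuclei, and 54886 kept nuclei remained as the other nuclei. Because of that choice, all differences in level between intestine nuclei and other nuclei are descriptions and carry no test.

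The worm intestine is a tube of large endodermal cells whose fate is set by GATA transcription factors, elt-2 and elt-7 among them. Its cells carry a brush border of microvilli on an intermediate filament web, secrete proteases and antimicrobial proteins into the lumen, store fat, and in adult hermaphrodites make yolk lipoproteins that are taken up by oocytes. It is also the tissue that first meets swallowed bacteria and dissolved chemicals.

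All libraries came from whole worms of strain JK560, which carries fog-1(q253), an allele of a gene that germ cells need to become sperm; per the labels, the adults have a germline but no fertilized embryos. Every group was kept at 20 °C and moved to 25 °C as L1 larvae in the generation that was sequenced; the labels give conflicting hours at 25 °C, so no adult age is stated. The groups were 0.5% ethanol in generation F1 (3 libraries) and F3 (3 libraries), 0.05% ethanol in F1 (5) and F3 (5), water in F1 (5) and F3 (5), and untreated P0 worms (4 libraries of unsorted nuclei and 1 of sorted nuclei). How the ethanol was given and which generation was exposed are not described in the labels. The 0.5% libraries belong to batch 5 in F1 and to batch 4 in F3, and the 0.05% and water libraries also to batch 2, which alone holds both generations. The labels do not say that libraries of a group came from separate cultures, so p-values measure the spread between these libraries, which may be technical.

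Libraries held 1116 to 4850 nuclei and 1218248 to 25500166 UMIs, and 17 to 161 intestine nuclei each. The sums over intestine nuclei, on which the comparisons between groups rest, held 27194 to 628569 UMIs per library. Fewer than 20 intestine nuclei came from 2 libraries, both of replicate number 2 in batch 5 (17 in 0.5% ethanol F1 and 19 in 0.05% ethanol F1). Libraries of a batch shared cell barcodes: at most 233, or 14.6% of the smaller library, were common to 2 libraries (0.05% ethanol F1 and water F3, both number 1 of batch 2), and at most 6 of the barcodes common to any pair were intestine nuclei in both.

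The score needed to enter ranged from 0.749% to 1.57% of a nucleus's UMIs across libraries. In the unsorted P0 library of batch 1 the lowest score inside was 1.58% and the highest outside 1.48%, the widest such gap of any library. In 0.05% ethanol F1 number 2 of batch 2 they were 0.983% and 0.980%, so the cut-off there divided a continuous range. A further 32 nuclei were in the top 4% but showed fewer than 3 of the genes and were left out. Intestine nuclei had a median score of 1.38%, with 5% of them below 0.957% and 5% above 3.21%, against a median of 0.203% in other nuclei. Few nuclei showed the whole set: 5 of the 9 genes were detected in the median intestine nucleus, 166 nuclei (7.32%) showed 3, and 24 (1.06%) showed all 9. Pooled over all libraries, intestine nuclei had a median of 2018 UMIs against 1754 UMIs in other nuclei. Within single libraries the median was higher in intestine nuclei in most, but lower in every unsorted P0 library and in some later ones.

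The genes of the score did not contribute evenly. The lysozyme gene lys-7 gave 27.4% of its UMIs in intestine nuclei, the aspartic protease gene asp-1 26.7%, the cathepsin B-like protease gene cpr-1 22.2% and the saposin-like gene spp-2 10.1%. The structural genes gave less, with 7.82% for the microvillar actin gene act-5 and 3.64% for the terminal web intermediate filament gene ifb-2. The gut esterase gene ges-1 gave 1.07%, the oligopeptide transporter gene pept-1 0.61% and the GATA factor gene elt-7 0.363%. The rule therefore picked mainly nuclei rich in secreted digestive and antimicrobial transcripts. At least 1 UMI of asp-1 was present in 98.3% of intestine nuclei and in 67.2% of other nuclei, of lys-7 in 82.2% and 33.0%, of ges-1 in 31.5% and 8.75%, and of elt-7 in 13.4% and 4.62%. Transcripts of the 9 genes were thus spread widely beyond the intestine nuclei, which held only 14.4% to 40.1% of each library's UMIs of these genes. Intestinal nuclei below the score and RNA outside its cell of origin would both give such UMIs, and they cannot be told apart here.

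Levels were compared as CPM, the UMI count of a gene scaled to the same total in every sum, of the summed intestine nuclei and the summed other nuclei of the same library, on the scale of log2(CPM + 10). All 9 genes of the score had a median ratio above 0 over the 31 libraries, as the rule forces. The median log2 ratio was 3.92 for lys-7, 3.26 for spp-2, 2.67 for cpr-1, 2.25 for asp-1, 1.99 for ges-1, 1.85 for ifb-2 and 1.76 for act-5, each above 0 in all 31 libraries. It was 1.17 for elt-7 and 0.89 for pept-1, each above 0 in 29 of 31. Level of lys-7 in intestine nuclei ranged from 1910 to 13900 CPM, with a median of 3900 CPM, against 130 to 676 CPM in other nuclei.

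**Figure D1:**
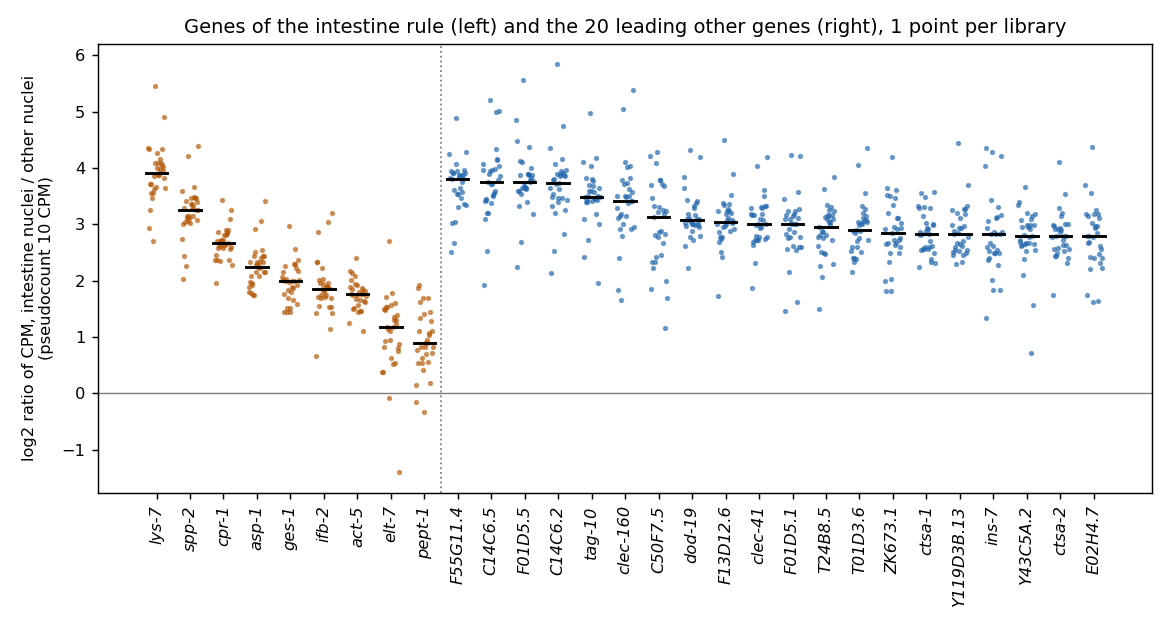
Log2 ratio of level (CPM, pseudocount 10) in intestine nuclei over other nuclei of the same library, for the 9 genes of the score (orange, left) and the 20 leading genes outside it (blue, right); each point is 1 of 31 libraries and each bar the median. The leading genes outside the score lie above 0 in all 31 libraries, with medians from 2.79 to 3.81, while elt-7 and pept-1 of the score dip below 0 in 2 libraries each.

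The 20 genes outside the score with the largest median ratio, among 2783 genes averaging at least 50 CPM in intestine nuclei, were above 0 in all 31 libraries. F55G11.4, which encodes a CUB-like domain protein, led with a median log2 ratio of 3.81: it averaged 1550 ± 1440 CPM in intestine nuclei and 109 CPM in other nuclei (SD over libraries, n = 31). Its spread was nearly as large as its mean. C14C6.5 followed at 3.76 with 1600 ± 539 CPM against 118 CPM in other nuclei, F01D5.5 at 3.75 with 707 ± 419 CPM against 42.3 CPM, and C14C6.2 at 3.74 with 530 ± 274 CPM against 29.1 CPM.

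Further leading genes fell into families. T24B8.5, a ShK-like toxin gene used as a reporter of p38 immune signalling, averaged 3510 ± 3320 CPM in intestine nuclei against 468 CPM in other nuclei, a log2 ratio of 2.96. The C-type lectin genes clec-160 and clec-41 had ratios of 3.42 and 3.01. The cathepsin A-like carboxypeptidase genes ctsa-1 and ctsa-2 had ratios of 2.83 and 2.79. The DAF-16-responsive gene dod-19 had a ratio of 3.07 with 1780 ± 1130 CPM, and ins-7, an insulin-like peptide gene known for intestinal expression, had 2.82 with 202 ± 160 CPM. The remaining leading genes were tag-10 (3.49), C50F7.5 (3.13), F13D12.6 (3.04), F01D5.1 (3.00), T01D3.6 (2.90), ZK673.1 (2.84), Y119D3B.13 (2.82), Y43C5A.2 (2.80) and E02H4.7 (2.79). By the WBcel235 annotation, 7 of the 20 lie on chromosome II, 5 on V and 4 on IV. The others are 3 on III, 1 on X and 0 on I. Of the 2783 genes, 15.9% lie on II, 19.5% on V, 17.1% on IV, 17.7% on III, 12% on X and 17.3% on I. Whether the counts depart from these shares was not tested.

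By level, yolk transcripts dominated the intestine nuclei. Of the 10 genes with the most CPM outside the score, 6 were the vitellogenin genes. The vitellogenin gene vit-6 averaged 37500 ± 9480 CPM in intestine nuclei and 12300 ± 2520 CPM in other nuclei, with a median log2 ratio of 1.53, and vit-2 averaged 29000 ± 8990 CPM and 11700 ± 2310 CPM, with a ratio of 1.21 (SD, n = 31). vit-5 averaged 20600, vit-3 8100, vit-4 8070 and vit-1 5510 CPM in intestine nuclei. All 6 were higher in intestine nuclei in all 31 libraries, though the smallest ratio of vit-3 was 0.02, in a 0.05% ethanol F3 library (number 1 of batch 2). vit-3, vit-4 and vit-5 are near-identical copies, so how their reads were divided is uncertain. The other 4 were dct-16 (10100 CPM, ratio 1.26), C17F4.7 (7960 CPM, 1.12), the invertebrate lysozyme gene ilys-5 (6170 CPM, 1.84) and the translation elongation factor gene eef-1A.1. This last, used by every cell, averaged 4880 ± 966 CPM in intestine nuclei and 5250 CPM in other nuclei, with a ratio of -0.11.

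Taken per library, the 6 vitellogenin genes made up 4.94% to 15.4% of all UMIs in the summed intestine nuclei, with a median of 10.8%, against 2.67% to 5.46%, with a median of 4.14%, in other nuclei. The share was higher in intestine nuclei in all 31 libraries, and yet intestine nuclei held only 5.49% to 18% of a library's vitellogenin UMIs. In F1 the share in intestine nuclei was 11.2%, 8.89%, 10.7%, 15.4% and 11.36% in the water libraries, 10.0%, 5.38%, 14.5%, 13.5% and 15.3% in the 0.05% libraries and 14.4%, 13.9% and 12.9% in the 0.5% libraries. In F3 it was 6.62%, 7.15%, 9.74%, 12.2% and 12% in the water libraries, 4.94%, 8.08%, 8.80%, 9.99% and 10.1% in the 0.05% libraries and 11.8%, 11.8% and 10.8% in the 0.5% libraries. Both doses overlapped with water in each generation. In F3 all 3 libraries of 0.5% ethanol lay above all 5 of 0.05% ethanol, and above the 3 of their own batch, which had 8.80% to 10.1%. Of the 6 lowest shares over all libraries, 5 came from batch 2, where both generations were measured. The untreated P0 libraries lay at 9.72%, 11.9%, 10.7% and 13.4% unsorted and 9.96% sorted.

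**Figure D2:**
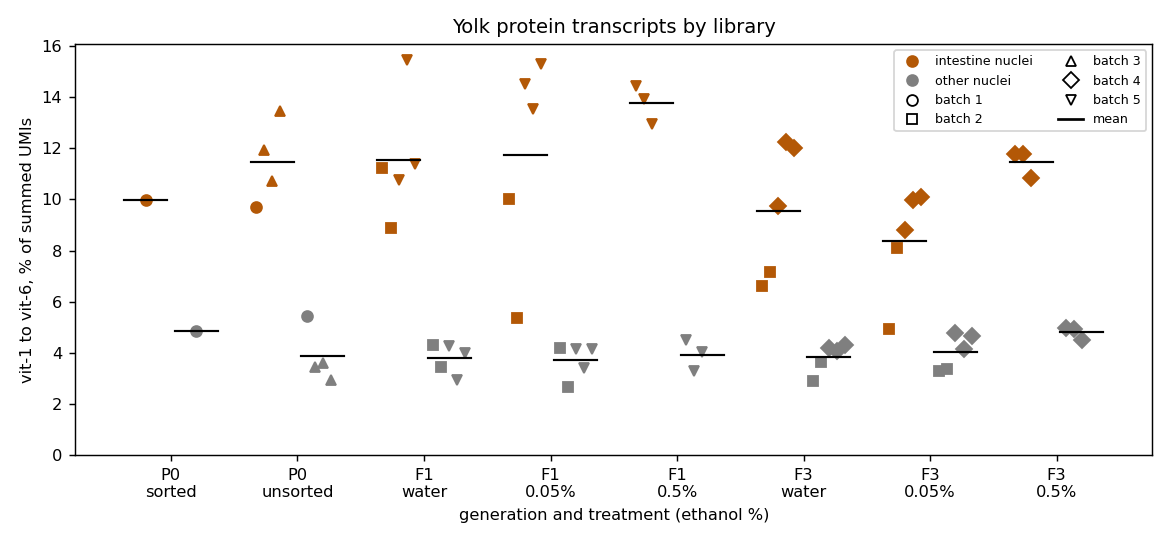
Share of all UMIs (%) that came from vit-1 to vit-6 in summed intestine nuclei (orange) and summed other nuclei (grey), by generation and treatment; each symbol is 1 library, its shape the batch, and the bar the group mean. Intestine nuclei lie at 4.94% to 15.4% and other nuclei at 2.67% to 5.46%, and both ethanol doses overlap with water in each generation.

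Intestine markers that the score did not use pointed the same way with less separation. elt-2, the GATA factor that maintains intestinal identity, had only 200 UMIs in all intestine nuclei. It averaged 28.2 ± 16.9 CPM in intestine nuclei and 10.8 ± 3.72 CPM in other nuclei, with a median ratio of 0.78 that was above 0 in 25 of 31 libraries. The ferritin gene ftn-1 averaged 386 ± 324 CPM against 130 ± 94.5 CPM in other nuclei, with a ratio of 1.35, and the metallothionein gene mtl-2 averaged 262 ± 105 CPM against 163 ± 67.6 CPM, with a ratio of 0.53. Both were above 0 in 30 of 31 libraries. The label of intestine nuclei is therefore not contradicted by these markers.

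Gene lists for intestinal functions were summed per library and compared between intestine and other nuclei, beside all 7824 genes outside the score that averaged at least 10 CPM, whose median log2 ratio was -0.41, with 2104 above 0. Defence genes (lysozymes, saposins, lectins) stood furthest out: their summed level in intestine nuclei was 365% of that in other nuclei at the median library, 18 of the 18 members at 10 CPM or more had a median ratio above 0, and lys-8 (2.39), spp-14 (2.29) and lys-1 (2.16) led. Digestive proteases were at 283%, with 12 of 12 above 0. Among them asp-6 had 2900 ± 719 CPM in intestine nuclei against 735 CPM in other nuclei, and the cathepsin B-like gene cpr-6 had 4070 ± 990 CPM against 1360 CPM. Vitellogenins were at 251% and metal-handling genes at 250%, the ferritin gene ftn-2 having 1900 ± 550 CPM against 603 CPM in other nuclei.

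Detoxification genes were at 208%, with 16 of 17 above 0, led in level by the glutathione S-transferase gene gst-10 (981 ± 239 CPM in intestine nuclei against 371 CPM in other nuclei). Genes of fat breakdown were at 180%, with 16 of 18 above 0, and of fat synthesis at 179%, with 16 of 17 above 0. Among the synthesis genes, the desaturase genes fat-2 and fat-6 had ratios of 1.11 and 1.12. In the breakdown list the acyl-CoA dehydrogenase gene acdh-1 had the highest level, 3890 ± 1100 CPM in intestine nuclei against 2250 CPM in other nuclei. Brush border and junction genes were at 187% with 10 of 10 above 0, but members that other epithelia also use stood near 0, such as the ERM family gene erm-1 at 0.13.

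Some intestinal lists separated the nuclei less. Transcription regulators ranged from 118% to 212% over libraries, led by pqm-1 with a ratio of 1.56, nhr-68 with 1.19 and the bZIP factor gene zip-2 with 0.90, while the Mediator subunit gene mdt-15 had 0.16. Lumen transport genes were at 163%, carried by the apical proton pump subunit gene vha-6 (599 ± 126 CPM in intestine nuclei against 221 CPM in other nuclei) and the aquaporin gene aqp-4. The inositol trisphosphate receptor gene itr-1, which times defecation, had a ratio of -0.05. Alcohol and aldehyde dehydrogenase genes were at 120%, with 9 of 14 above 0, and genes of lysosome-related gut granules at 112%, with 4 of 10 above 0.

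Lipid carriers were the exception, at 52.8%, lower in intestine nuclei in all 31 libraries. The list split by member. The fatty acid and retinol binding genes far-2 and far-1 had ratios of -1.16 and -1.38, and the secreted lipid-binding gene lbp-2 had -1.35. The intracellular lipid-binding gene lbp-6 had 0.96, with 982 ± 293 CPM in intestine nuclei against 490 CPM in other nuclei, and was above 0 in all 31 libraries. Chaperones were at 94.4%, with 4 of 12 above 0. The cytosolic Hsp70 gene hsp-1 had a ratio of -0.36, and the endoplasmic reticulum Hsp70 gene hsp-3 one of 0.79.

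**Figure D3:**
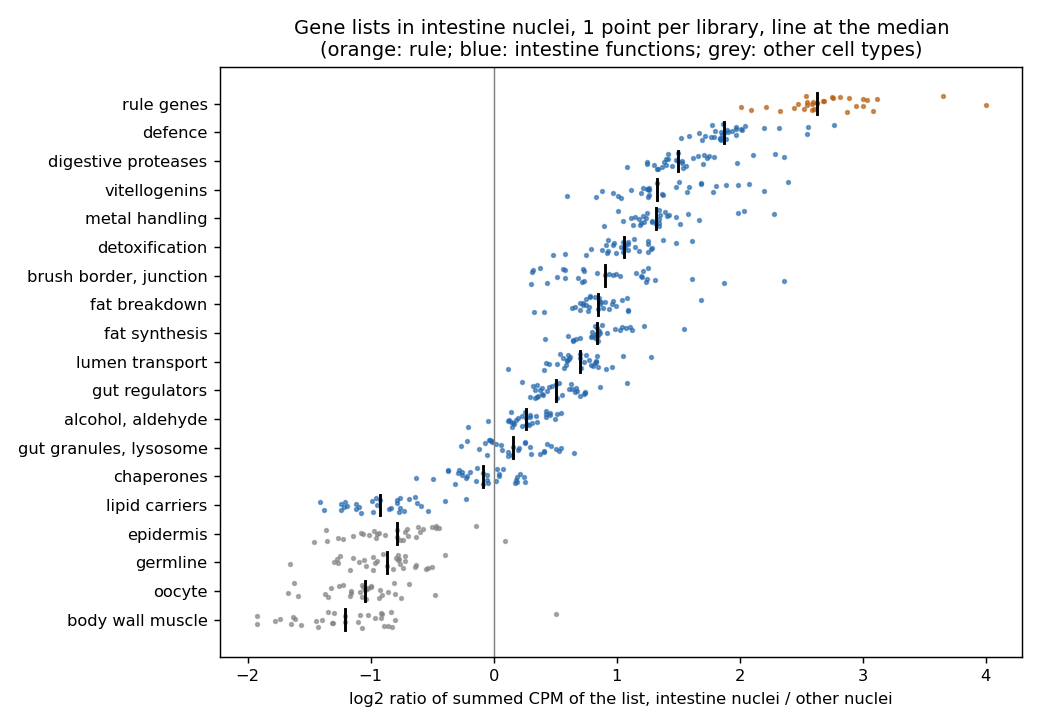
Log2 ratio of the summed CPM of each gene list in intestine nuclei over other nuclei; each point is 1 of 31 libraries and the black line the median (orange, the 9 genes of the score; blue, intestinal functions; grey, other cell types). Defence genes (median 365% of other nuclei) and digestive proteases (283%) lie furthest right of the intestinal lists, lipid carriers (52.8%) left of 0, and body wall muscle genes lie left of 0 in 30 libraries.

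Markers of most other cell types were lower in intestine nuclei at the median library, but present. Most genes were lower too: of 7824 genes outside the score that averaged at least 10 CPM, 5716 had a median ratio below 0. The median over all 7824 was -0.41, against -1.23 over body wall muscle genes and -0.78 over neuron genes. Body wall muscle genes summed to 43.4% of their level in other nuclei at the median library and were lower in 30 of 31. In the exception, 0.5% ethanol F1 number 2 of batch 5 with its 17 intestine nuclei, they stood above their level in other nuclei. All 8 of these genes had a median ratio below 0, the myosin gene unc-54 averaging 1230 ± 581 CPM in intestine nuclei against 2880 CPM in other nuclei. Oocyte genes stood at 48.4% and germline genes at 54.8%, lower in all 31, epidermis genes at 58.0%, neuron genes at 68.6%, pharyngeal muscle genes at 29.9% and gonadal sheath genes at 37.2%. The highest library reached 106% for epidermis genes, 112% for neuron genes and 129% for pharyngeal muscle genes. Of the 5 sperm genes, 4 major sperm protein genes had 0 UMIs in intestine nuclei. At the median library the 5 genes summed to 0 CPM in other nuclei too, so they do not set intestine nuclei apart. At least 3 body wall muscle genes were detected in 60.4% of intestine nuclei and in 70.5% of other nuclei, and at least 3 oocyte genes in 42.7% and 55.9%. Their part in the results on intestine nuclei was not tested. Of the 2269 intestine nuclei, 32 were scored as likely doublets.

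Among the intestine nuclei, yolk transcripts varied widely in count. The vitellogenin share of a nucleus's UMIs had a median of 8.98%, with 5% of nuclei below 1.36% and 5% above 21.6%, and reached 37.9%; in other nuclei the median was 2.71%. For each gene the variance between nuclei of a library, relative to that of counting alone (a value of 1), was formed over genes with at least 1 UMI per intestine nucleus. Their median was 1.74 and 206 of them lay above 2. vit-6 had 34.8, vit-2 32.1, vit-4 23.9 and vit-5 23.5. Y39B6A.1 had 31.6 and the uterine lumen gene ule-4 28.9. Counts that are higher give larger values on this scale; after division by the mean count, dod-6 was first with an excess of 13.4 and D1086.10 second with 11.7. The excess of the 4 vitellogenin genes named was 0.304 for vit-6, 0.365 for vit-2, 0.9 for vit-4 and 0.387 for vit-5. lys-7 and act-5, which the rule used, had 13.4 and 2.48 before this division and an excess of 0.896 and 0.373 after it. Within a library the vitellogenin share and the score of its intestine nuclei had a Spearman correlation between -0.53 and 0.46, with a median of 0.09. It was above 0 in 25 of 31 libraries. The nuclei were chosen by this score, so only its top range enters. These nuclei share a library and its depth.

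The rule fixes the share of intestine nuclei in each library, so the share of kept nuclei past 1 common score was compared instead. Nuclei were thinned to 800 UMIs, and those past 1.12% with at least 3 of the genes were counted. This share rests on the same genes as the rule. A change in their level, or in their RNA outside its cell of origin, would move it too. Number of nuclei and level of these genes therefore cannot be told apart by this share. In F3, 0.05% ethanol libraries had 4.55%, 4.68%, 5.65%, 3.54% and 5.07% of kept nuclei past this score, against 3.46%, 4.31%, 3.48%, 3.16% and 5.00% in water libraries. The groups overlapped. The difference was 0.812 percentage points, 0.727 within batch 2 and 0.869 within batch 4, and was not significant (exact two-sided permutation test within batches, p = 0.117, adjusted over the 4 comparisons 0.467). In F1, 0.05% ethanol libraries averaged 3.80% ± 0.948 and water libraries 3.54% ± 1.27 (SD, n = 5 each, exact permutation p = 0.65, adjusted 0.9), with differences of 0.0512 within batch 2 and 0.395 within batch 5.

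For 0.5% ethanol the share was 3.07% ± 0.668 against 2.92% ± 0.310 in batch 5 water libraries in F1 (SD, n = 3 each, exact permutation p = 0.8, adjusted 0.9). In F3 it was 3.73% ± 0.284 against 3.88% ± 0.984 in batch 4 water libraries (SD, n = 3 each, exact permutation p = 0.9, adjusted 0.9). The smallest p these tests can give is 0.0167 for 0.05% ethanol and 0.1 for 0.5% ethanol, so the 0.5% comparisons cannot pass 0.05. The untreated P0 libraries had 4.83% ± 1.66 unsorted (SD, n = 4), ranging from 2.94% to 6.75%, and the sorted library had 7.12% (95% Wilson interval 6.06% to 8.35%, counting error only). The unsorted library of the same batch had 6.75% (interval 5.23% to 8.66%), overlapping with it. Treatment and batch cannot be told apart between P0 and the later generations.

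**Figure D4:**
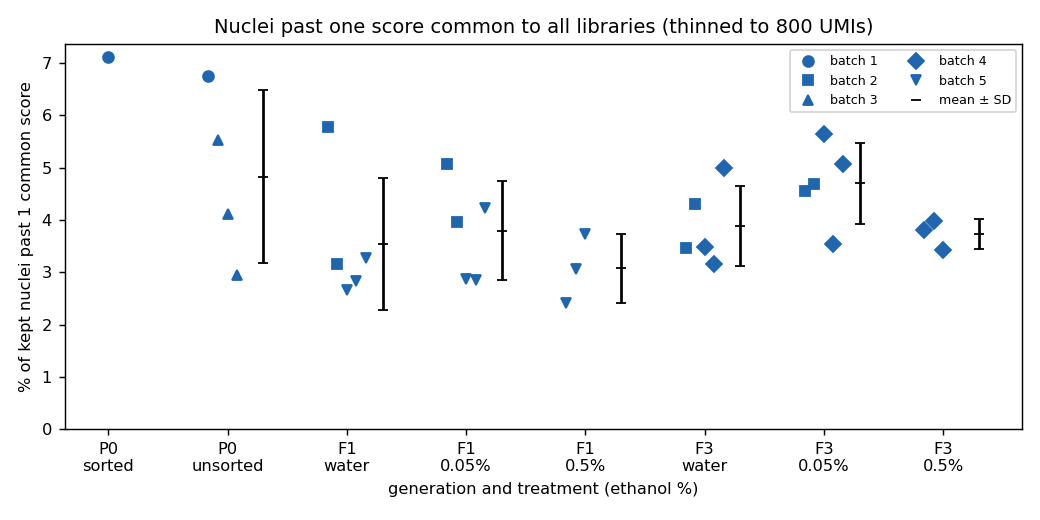
Share of kept nuclei (%) past 1 score common to all libraries after thinning to 800 UMIs, by generation and treatment; each symbol is 1 library, its shape the batch, and bars show mean ± SD. The groups of each generation overlap, the 0.05% ethanol F3 libraries lying between 3.54% and 5.65% and the water F3 libraries between 3.16% and 5.00%.

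The question of whether ethanol lines differ from water lines in intestinal gene activity was asked of the summed UMI counts per library, with edgeR's quasi-likelihood test over 26 water and ethanol libraries and 4905 genes, within batch and generation. The water libraries are shared by the comparisons with 0.05% and 0.5% ethanol. Values are CPM scaled by edgeR's TMM factors.

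In F3 at 0.5% ethanol, the heat-inducible transcript of hsp-16.41 fell in intestine nuclei. hsp-16.41 is a small heat-shock protein gene that is nearly silent without stress. It was the single gene called in the main fit, which has no replicate block (1 of 4905, 0.0204%, edgeR adjusted p below 0.05). It had 25.7, 21.9 and 22.2 CPM in 0.5% ethanol F3 libraries, against 165, 338 and 65.1 CPM in water F3 libraries of batch 4. The groups did not overlap. Its mean fell to 23.2 ± 2.14 CPM in 0.5% ethanol, against 189 ± 138 CPM in water (SD, n = 3 each), with a log2 estimate of -3.08 (edgeR adjusted p = 0.0337, SE 0.569, DESeq2 adjusted p = 0.00667). The counts behind it were 20 UMIs in ethanol and 137 UMIs in water.

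The partner genes had the same direction but did not pass. The inducible Hsp70 gene hsp-70 had 22.5, 30.1 and 5.54 CPM in 0.5% ethanol F3 libraries, against 115, 239 and 39.1 CPM in water libraries, a log2 change of -2.62 (edgeR adjusted p = 0.0575, SE 0.526). hsp-16.2, a close relative of hsp-16.41, had 64.3, 35.6 and 11.1 CPM against 145, 406 and 78.2 CPM in water libraries, a log2 change of -2.32 (edgeR adjusted p = 0.154, SE 0.518). Neither gene's groups overlapped. With the replicate number as a block, edgeR called all 3 genes lower, with adjusted p of 0.000511 for hsp-16.41, 0.000717 for hsp-70 and 0.00852 for hsp-16.2. Members of the hsp-16 family are close copies, so how reads were divided between them is uncertain.

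The hsp-16.41 call at 0.5% ethanol F3 rested on few libraries. Without water number 2 of batch 4, the highest library, the log2 change was -2.50 and the edgeR adjusted p 0.588. It was 0.0632 without water number 1, and 0.195, 0.302 and 0.208 without ethanol number 1, 2 and 3, while without water number 3 it was 0.00232. The call was also lost with at least 20 intestine nuclei per library (adjusted p = 0.0597), without the 3 libraries numbered 2 of batch 5 (0.109) and with the top 2% of nuclei (0.0845), at log2 changes between -3.06 and -2.79. Over all alternatives run, the log2 estimate lay between -3.43 and -2.50.

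The other nuclei of the same libraries moved likewise. hsp-16.41 had 40.8, 26.0 and 11.8 CPM in other nuclei of 0.5% ethanol F3 libraries against 115, 209 and 48.8 CPM in those of water, a log2 change of -2.15 (edgeR adjusted p = 0.993). The change in intestine nuclei minus that in other nuclei was -0.36 (SE 0.53, limma adjusted p = 1), so a difference between intestine and other nuclei was not shown.

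**Figure D5:**
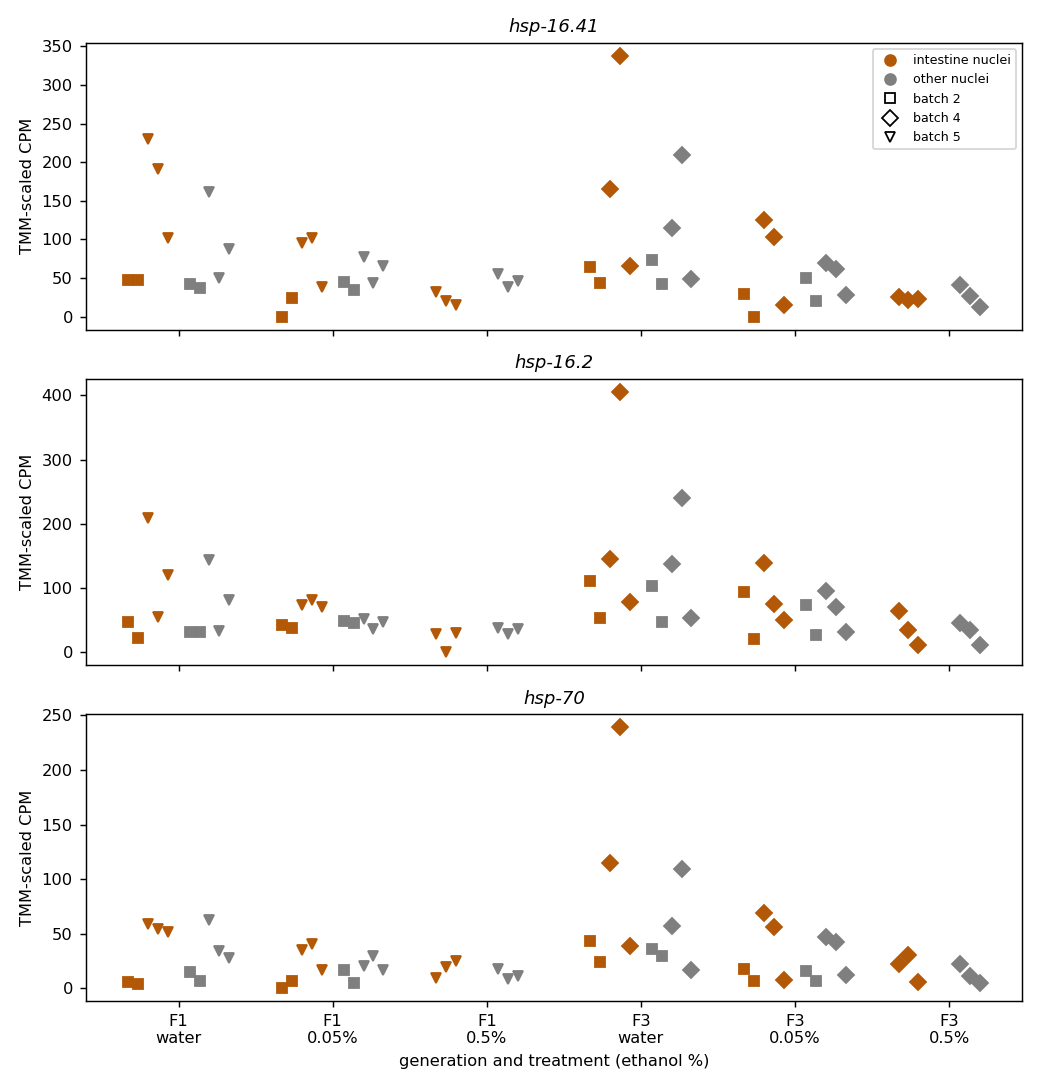
TMM-scaled CPM of hsp-16.41, hsp-16.2 and hsp-70 in summed intestine nuclei (orange) and other nuclei (grey) of F1 and F3 libraries, by ethanol percentage; each symbol is 1 library and its shape the batch. In F3, the 0.5% libraries of hsp-16.41 in intestine nuclei lie between 21.9 and 25.7 CPM, below batch 4 water at 65.1 to 338 CPM, and in other nuclei they lie between 11.8 and 40.8 CPM, below 48.8 to 209 CPM.

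In F1 at 0.5% ethanol, edgeR called 0 of 4905 genes (0%) in the main fit and 2 of 5555 with the replicate number as a block. DESeq2 called 0. In the main fit 128 genes (2.61%, of which 1.33% were higher and 1.28% lower) had an unadjusted p below 0.05. hsp-16.41 again had the smallest p: 31.2, 19.8 and 14.8 CPM in 0.5% ethanol libraries against 230, 191 and 102 CPM in batch 5 water libraries. The log2 change was -2.84 (edgeR adjusted p = 0.486, SE 0.635). The groups did not overlap, and the adjusted p was 0.00848 with the replicate number as a block and 0.0419 with only these libraries in the fit. C35B1.4 had 68.7 ± 45.7 CPM against 276 ± 183 CPM in water (SD, n = 3 each, log2 change -2.47, edgeR adjusted p = 0.672, and 0.00848 with the block). Its single libraries were 57.7, 119 and 29.6 CPM in 0.5% ethanol and 481, 218 and 128 CPM in water. nas-20, an astacin metalloprotease gene, had 13.1 ± 5.83 CPM against 78.9 ± 35.2 CPM in water (log2 change -2.70, edgeR adjusted p = 0.796). Whether a few of the intestine nuclei carried most of nas-20 was not tested. With the top 8% of nuclei the log2 change was -1.24 for C35B1.4 and -0.88 for nas-20, and over the other alternatives it lay between -2.85 and -2.03 and between -3.04 and -2.42.

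Chaperones stood out among the lists of 0.5% ethanol F1 by count. Of 10 chaperone genes tested, 5 were lower at an unadjusted p below 0.05, all 10 had a log2 change below 0 and the median was -0.78, against a median of 0.01 over all genes. Those with the smallest p were hsp-16.41, hsp-16.2 (-2.33, edgeR adjusted p = 0.796) and hsp-6, a mitochondrial Hsp70 gene (-0.99, adjusted p = 1). Of 16 defence genes, 3 were higher at that level, clec-65 by 0.93, the lysozyme gene ilys-3 by 2.07 and irg-4 by 1.16, each with an edgeR adjusted p of 1. Without 0.5% ethanol number 1, irg-4 stood at -0.08. Of 8 body wall muscle genes, 2 were higher at that level, unc-54 by 1.01 and unc-27 by 0.73, all 8 had a change above 0 and their median was 0.56. Their summed level in intestine nuclei was 4214, 8087 and 3662 CPM in 0.5% ethanol libraries against 4092, 2721 and 3632 CPM in batch 5 water libraries. The highest was ethanol number 2, with its 17 intestine nuclei. Over the alternatives run, the change was as low as 0.31 for unc-54 and 0.19 for unc-27. Of 6 pharyngeal muscle genes, 2 were lower. Their part in the result was not tested. In F3 the 0.5% comparison had 160 genes (3.26%, of which 1.51% were higher and 1.75% lower) at an unadjusted p below 0.05, 4 of 10 chaperone genes among them, all lower, the median of the list being -0.26. Markers of other types moved there too: all 6 pharyngeal muscle genes had a log2 change below 0, with a median of -0.90 and myo-1 (-1.24) lower at that level. The germline gene glh-1 (0.68) and the yolk receptor gene rme-2 of oocytes (0.84) were higher at that level, with medians of 0.41 over 5 germline genes and -0.02 over 7 oocyte genes. Their part in the result was not tested.

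In F3 at 0.05% ethanol, edgeR called 0 of 4905 genes (0%), with 160 (3.26%, of which 1.26% were higher and 2% lower) at an unadjusted p below 0.05, and DESeq2 called 0. ZK813.2 had the smallest p, with 41.3, 108, 97.1, 121 and 79.8 CPM in 0.05% ethanol libraries against 209 to 343 CPM in the 5 water libraries. The groups did not overlap. The log2 change was -1.53 (edgeR adjusted p = 0.446, SE 0.341), and in other nuclei it was -0.12. ZK813.3 and ZK813.7, genes of like name, were uneven between intestine nuclei, with an excess of 6.96 and 6.86 after division by the mean count. Whether a few of the intestine nuclei carried most of ZK813.2 was not tested. The lysosomal alpha-mannosidase gene aman-1 had 11.2 ± 7.44 CPM in 0.05% ethanol against 55.2 ± 23.9 CPM in water (SD, n = 5 each, log2 change -2.20, edgeR adjusted p = 1), and R102.2 had 12.4 ± 9.43 CPM against 69.1 ± 35.5 CPM (log2 change -2.60, adjusted p = 1). Of 10 chaperone genes tested, 4 were lower at an unadjusted p below 0.05, among them hsp-70 at -1.48, hsp-16.41 at -1.30 and hsp-16.2 at -1.0, each with an adjusted p of 1.

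In F1 at 0.05% ethanol, edgeR called 0 of 4905 genes (0%), with 163 (3.32%, of which 1.57% were higher and 1.75% lower) at an unadjusted p below 0.05, and DESeq2 called 0. The smallest p belonged to F40A3.6, with 60.3, 65.5, 26.0, 0 and 54.7 CPM in 0.05% ethanol libraries against 21.2, 14.7, 10.5, 0 and 11 CPM in water libraries. This was a log2 change of 1.80 (edgeR adjusted p = 0.999, SE 0.441), and 4 of 5 ethanol libraries lay above all water libraries of their batch. F15A4.6 had 29.4 ± 10.5 CPM in 0.05% ethanol against 120 ± 103 CPM in water (SD, n = 5 each, log2 change -2.10, adjusted p = 0.999), and F41G3.21 had 1.09 ± 2.45 CPM against 24.5 ± 29.8 CPM, resting on 1 UMI in ethanol and 34 UMIs in water. Among chaperones, 2 of 10 were lower at an unadjusted p below 0.05, hsp-16.41 at -1.30 and hsp-6 at -0.71. ifo-1, which encodes an organizer of the terminal web filaments, had a log2 change of 1.04 at that level, with an adjusted p of 0.999. Markers of muscle moved with the group too: the body wall myosin gene myo-3 was higher by 0.82 and 2 of 6 pharyngeal muscle genes were lower at that level.

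Yolk and alcohol genes gave no call in these 4 comparisons. For the 6 vitellogenin genes, 0 reached an unadjusted p below 0.05 in edgeR in any of them, and their median log2 change was 0.01 at 0.05% F1, -0.21 at 0.05% F3, 0.05 at 0.5% F1 and 0.01 at 0.5% F3. For the 11 alcohol and aldehyde dehydrogenase genes tested, likewise 0 reached it, and the medians were 0.01, -0.02, 0.08 and 0.01. Over all genes the median lay between -0.02 and 0.01. The standard error of a log2 change was 0.338 to 0.435 for the median gene, which sets what these sums can show.

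The change with ethanol in intestine nuclei was set against that in other nuclei of the same libraries by limma on the difference of log2 CPM. It called 0 of 4905 genes in each case (0%), with 289 genes (5.89%) at an unadjusted p below 0.05 for 0.05% F1, 77 (1.57%) for 0.05% F3, 438 (8.93%) for 0.5% F1 and 45 (0.917%) for 0.5% F3. These counts moved with single libraries of batch 5: for 0.5% F1 there were 198 without ethanol number 2 and 717 without ethanol number 1, and for 0.05% F1 there were 174 without ethanol number 2 and 186 without water number 2. For 0.05% F3 there were 138 without ethanol number 2 of batch 2, and for 0.5% F3 there were 69 without ethanol number 2. DESeq2 was not run on these differences. At 0.5% F1, the log2 change of hsp-16.41 in intestine nuclei minus that in other nuclei was -1.90 (SE 0.53, limma adjusted p = 0.476) and that of hsp-16.2 was -1.48 (SE 0.408, limma adjusted p = 0.476).

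The doses were compared directly at 0.5% minus 0.05%. In F1, edgeR called 0 genes (0%), and 110 (2.24%, 1.26% higher and 0.979% lower) had an unadjusted p below 0.05. In F3 it called 0 genes (0%), and 196 (4%, 1.98% higher and 2.02% lower) passed unadjusted. DESeq2 called 0 in both. In F1 the smallest p belonged to the fibulin gene fbl-1 (34.3 ± 5.41 CPM at 0.5% against 1.45 ± 2.50 CPM at 0.05%, SD, n = 3 each), followed by T05A8.3 and the neuropeptide gene flp-12, each with an edgeR adjusted p of 1. flp-12 rested on 1 library: its log2 difference was 3.21, and -1.51 without 0.5% ethanol number 1. In F3 it belonged to the ATP citrate lyase gene acly-2 (150 ± 27.5 CPM at 0.5% against 70.0 ± 24.2 CPM at 0.05%, log2 difference 1.05), followed by F35A5.2 and lact-1, each with an edgeR adjusted p of 1. hsp-16.41 differed by -1.53 (SE 0.691) in F1 and by -1.78 (SE 0.615) in F3, both with an adjusted p of 1. In F3, 2 of 8 body wall muscle genes were lower at an unadjusted p below 0.05, and 7 had a difference below 0. The median of these 8 genes was -0.39, and their part was not tested.

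Whether the ethanol effect differed between generations was tested as its own term. edgeR called 0 genes for 0.05% ethanol (0%, with 134, or 2.73%, at an unadjusted p below 0.05, 1.33% higher and 1.41% lower) and 0 for 0.5% ethanol (0%, with 141, or 2.87%, 1.43% higher and 1.45% lower), and DESeq2 called 0 in both. For 0.5% ethanol, generation coincides with batch, and these cannot be told apart. Markers of muscle moved there too: 3 of 8 body wall muscle genes were lower at an unadjusted p below 0.05. Of these 8 genes, 7 had a value below 0, and their median was -0.94. Their part in the result was not tested. The smallest p belonged to F35A5.2, M163.8 and aman-1 at 0.05% and to acly-2, C44B7.5 and the muscle LIM gene alp-1 at 0.5%, all with an edgeR adjusted p of 1. The log2 change of hsp-16.41 with 0.5% ethanol in F3 minus that in F1 was -0.24 (SE 0.895, adjusted p = 1).

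Generations themselves could be compared within batch 2, over 4 F3 and 4 F1 libraries and 3630 genes. edgeR called 0 genes (0%), with 339 (9.34%, of which 4.41% were higher and 4.93% lower) at an unadjusted p below 0.05. DESeq2 called 17, 5 of them higher and 12 lower in F3, and gave no adjusted p for 2252 genes. dod-6 had the smallest p, with 139, 121, 82.6 and 94.3 CPM in F3 libraries against 281, 657, 163 and 286 CPM in F1 libraries. The groups did not overlap. The log2 change was -1.69 (edgeR adjusted p = 0.129, SE 0.295, DESeq2 0.000502), and in other nuclei it was 0.21. The cytochrome P450 gene cyp-34A2 had 22.6, 37.0, 23.6 and 47.2 CPM in F3 against 191, 426, 30.2 and 238 CPM in F1 (log2 change -2.95, edgeR adjusted p = 0.129, DESeq2 0.000412). The highest F3 library lay above the lowest F1 library. In other nuclei its change was -1.59 (edgeR adjusted p = 0.0223). For W05F2.3 the mean was 83.1 CPM in F3 against 192 CPM in F1 (log2 change -1.23, edgeR adjusted p = 0.129), and the groups did not overlap.

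Without the 0.05% ethanol F1 library number 1, which shares the most barcodes with another, edgeR called 3 genes lower in F3 within batch 2: cyp-34A2 (-3.22, adjusted p = 0.00368), C50F7.5 (-1.57, 0.018) and dod-6 (-1.81, 0.037). Without water F1 number 1 it called 2, dod-6 and col-166, and without water F3 number 1 it called ule-1 alone.

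Counts by list between F3 and F1 of batch 2 stand beside the background of 9.34%. Of 12 digestive protease genes, 3 were lower in F3 at an unadjusted p below 0.05, asp-5 by -0.52, asp-6 by -0.59 and cpr-3 by -0.83. Of 16 fat synthesis genes, 2 were higher and 3 lower, elo-5 at 0.69 and fat-5 at -0.50 among them. vit-5 had 9590 ± 2850 CPM against 15900 ± 4990 CPM (-0.76, adjusted p = 0.41). Markers of other types moved too: 3 of 7 oocyte genes were lower at that level, all 7 with a change below 0, and the cuticle collagen gene col-19 was at 2590 ± 532 CPM in F3 against 1480 ± 348 CPM in F1. Their part was not tested.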

How the data were processed

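Single-nucleus RNA of whole worms was measured in 31 libraries. The authors deposited UMI counts, not normalized, for each gene in each nucleus, in sparse matrices whose software version is 3.0.2, per the file headers. Cell Ranger and the ce10 genome are named in the submitters' processing notes; the gene annotation and strandedness are not given in the sources used here. Chromosomes come from the WBcel235 annotation by gene identifier, and no coordinates are given.

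Intestine nuclei were chosen by the rule stated at the start of the results. The members and gene lists were chosen with earlier results of these data known. Of 274 list genes, 3 were not found by name in the files. Likely doublets were scored by simulated pairs within each library (0.8% per 1000 nuclei) and were kept, since leaving them out was an alternative. Counts of intestine nuclei were summed per library, and libraries with at least 10 such nuclei were tested, which all 26 were. Depth per library is in the opening; the number of nuclei limits precision.

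The main test was edgeR 4.0.16 (TMM factors, filterByExpr, quasi-likelihood), with an intercept per batch and generation, Benjamini-Hochberg adjustment and calls below 0.05; its SE is the log2 change over the square root of F. DESeq2 gave no adjusted p for 14 genes in the comparisons over 26 libraries. Intestine minus other nuclei was tested with limma 3.58.1 on log2 CPM (prior count 2). Alternatives included DESeq2 1.42.0 and other filters, libraries and nuclei. The scripts were tested on simulated data (R 4.3.3, Python 3.11.15).

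Genes named are the 9 of the score, the 20 leading and 10 highest outside it, up to 4 per list by level, called genes or the 3 with the smallest p averaging at least 20 CPM in 1 arm, and up to 3 list members with an unadjusted p below 0.05. hsp-16.2, hsp-70, dod-6, C35B1.4, col-166 and ule-1, where outside this rule, were chosen after their values were seen.

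In 4 comparisons, same-numbered libraries of a batch deviated together over 2983 genes, with correlations of 0.125 to 0.289 for 0.05% ethanol and water in F1, 0.223 to 0.237 for 0.5% ethanol and water in F1, 0.103 to 0.15 for the same in F3, and 0.157 to 0.239 for both doses in F1. As the labels do not say what the numbers mark, the main tests did not use them. In these 4 comparisons they were taken as pairs from the data, in an alternative fit with a replicate block. The libraries numbered 2 of batch 5 held 17, 19 and 20 intestine nuclei, and the part of depth in these correlations was not tested.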

Additional observations from a re-analysis of the deposited data

Results flagged for a closer look

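Values of 16 quantities were compared within groups of 4 or 5 libraries, 80 sets in all, and 8 values stood apart from the rest of their group by Dixon's test at its 95% value. Chance gives about 1 in 20 sets where the libraries of a set are alike, and no explanation was tested. Every set mixed batches, and the unsorted P0 library of batch 1 was the only one of its batch in its set. The score and lys-7 are values the rule used, given here as a description. In intestine nuclei of the unsorted P0 library of batch 1, the median score was 2.24% of UMIs, the next library having 1.75%, and hsp-70 was at 86.1 CPM, the next at 20.1. In number 1 of batch 3 of the same group, ZK813.2 was at 410 CPM, the next at 183. Water F1 number 1 of batch 2 had 5.77% of kept nuclei past the common score, the next 3.27%, and lys-7 at 6210 CPM, the next at 3980. In 0.05% ethanol F1 number 2 of batch 2, epidermis genes summed to 6930 CPM in intestine nuclei, the next to 4980. F55G11.4 was at 3190 CPM in 0.05% ethanol F3 number 1 of batch 2, the next at 1340. hsp-16.2 was at 406 CPM in water F3 number 2 of batch 4, the next at 145; this is the library without which the hsp-16.41 call at 0.5% ethanol F3 is lost with the largest adjusted p.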

How the results depend on the processing

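Counts of calls moved most with no filter on low counts. Without it edgeR called 10 genes for 0.05% ethanol F1, 9 for 0.05% F3, 8 for 0.5% F1, 9 for 0.5% F3, 8 and 23 for 0.5% minus 0.05% in F1 and F3, 16 and 3 for the difference between generations at 0.05% and 0.5%, and 105 for F3 minus F1 in batch 2. With the replicate block it called 2 genes for 0.5% F1, 3 for 0.5% F3 and 9 for batch 2, where same-numbered libraries correlated at 0.0919 in ethanol and 0.0731 in water, too little to take them as pairs; the block changed no other call. The numbers were not taken as pairs either for 0.05% F3 against water (correlations from -0.0189 to 0.223) or for 0.5% minus 0.05% in F3 (-0.0831 to 0.053). For the share past the common score in 0.05% F3 against water, the replicate block gave p = 0.0625 (adjusted 0.25), the smallest that an exact permutation within 5 pairs can give, with ethanol higher in all 5. With only the libraries of the comparison it called 1 gene for 0.5% F1 and 2 for 0.5% minus 0.05% in F3 (dod-6 and T20G5.8). For 0.5% F3 it called 0 with at least 20 nuclei per library, 0 without the libraries numbered 2 of batch 5, 0 with the top 2% and 2 with the top 8% of nuclei. For batch 2, DESeq2 called 17 genes and the top 8% of nuclei gave 5. The cause was not tested.

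Leaving out 1 library gave 0 to 1 calls for 0.05% F3 (F27B10.1, without water number 2 of batch 2), 0 to 3 for 0.5% F3 and 0 to 3 for batch 2. The difference in the share past the common score then ran from -0.155 to 0.716 for 0.05% F1, from -0.183 to 0.484 for 0.5% F1 and from -0.511 to 0.41 for 0.5% F3. With the 90th percentile as the common score it was -0.0613 for 0.05% F1 and -0.304 for 0.5% F1, and without thinning -0.389 for 0.5% F1. Of 128 pairs of a named gene and a comparison, 126 kept their direction in every alternative run; without 0.5% F1 number 1, irg-4 at 0.5% F1 turned to -0.08 and flp-12 at 0.5% minus 0.05% in F1 to -1.51, while the highest values over alternatives were 1.62 and 4.03. Of 87 recomputed ratios of level, 84 moved by less than 1 SD over libraries. The number of intestine nuclei per library, 17 to 161, limits what low genes can show.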
